A study of Mus musculus with 12 samples.

Results

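The endocannabinoid receptor Cnr1 and the enzymes Dagla, Daglb, Mgll, Abhd6, Napepld and Faah were followed through cortex and cerebellum of the spinocerebellar ataxia type 1 knock-in mouse (SCA1 KI). The 7 genes were taken by their symbols, all 7 were found among the 15759 entries of the table of normalized counts, and all 7 were among the 15369 genes tested. Poly-adenylated RNA of macro-dissected tissue had been sequenced from mice on a C57BL/6J background at 12 weeks of age, as 3 SCA1 KI and 3 wild-type (WT) littermate libraries per region, 12 in all. SCA1 KI mice (Atxn1 154Q/2Q) bear 1 Atxn1 allele with 154 glutamine repeats under its own regulators beside a 2Q allele, so every cell type that transcribes Atxn1 can express the mutant protein. The labels list male mice, while the methods of the paper describe both sexes. Ddx3y, a gene of the Y chromosome, had 2664 to 4728 normalized counts over the 12 libraries, and Eif2s3y, Kdm5d and Uty were likewise present in each. The cerebellar libraries belong to an earlier dataset of the same laboratory. Libraries are called by the letter (cortex) or number (cerebellum) of their column.

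Endocannabinoids are lipid messengers that are made on demand, mostly in the postsynaptic neuron, and act backwards on the CB1 receptor of the presynaptic terminal, where they lower transmitter release. The main messenger in the brain, 2-arachidonoylglycerol (2-AG), is made from diacylglycerol by the diacylglycerol lipases Dagla and Daglb, often after Gq-coupled glutamate or acetylcholine receptors have activated phospholipase C. It is broken down mainly by monoacylglycerol lipase (Mgll) and in part by Abhd6. The other messenger, anandamide, can be released by the phospholipase Napepld and is hydrolysed by Faah. In the cerebellum this system sets the strength of parallel and climbing fibre inputs to Purkinje cells, and in the cortex CB1 is abundant on the terminals of interneurons that contain cholecystokinin.

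In the cortex of SCA1 KI mice 5 of the 7 transcripts fell and none rose. Mgll and Dagla fell most, followed by Cnr1, Abhd6 and Daglb, whereas Napepld and Faah did not pass the test. In the cerebellum Dagla alone passed, again lower in SCA1 KI mice. The genotype difference of Mgll, Cnr1 and Daglb was larger in the cortex than in the cerebellum by a direct test, which Mgll passed with any library left out and which Cnr1 and Daglb missed without cerebellar SCA1 KI library 1 or 5. The regions were sequenced as separate datasets, so region and dataset cannot be told apart in this test. A gene was called at a Benjamini-Hochberg adjusted p under 0.05 from limma with an absolute log2 fold change (LFC) over 0.25. By this rule 10.8% of all tested genes were lower and 4.82% higher in the SCA1 KI cortex, and 4.44% were lower and 0.917% higher in the SCA1 KI cerebellum. For the difference of the genotype LFC between the regions, an adjusted p under 0.05 was used without a limit on the LFC. The median LFC of the 7 genes was −0.51 in the cortex and −0.048 in the cerebellum, beside −0.0028 and −0.0049 over all tested genes.

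**Figure D1:**
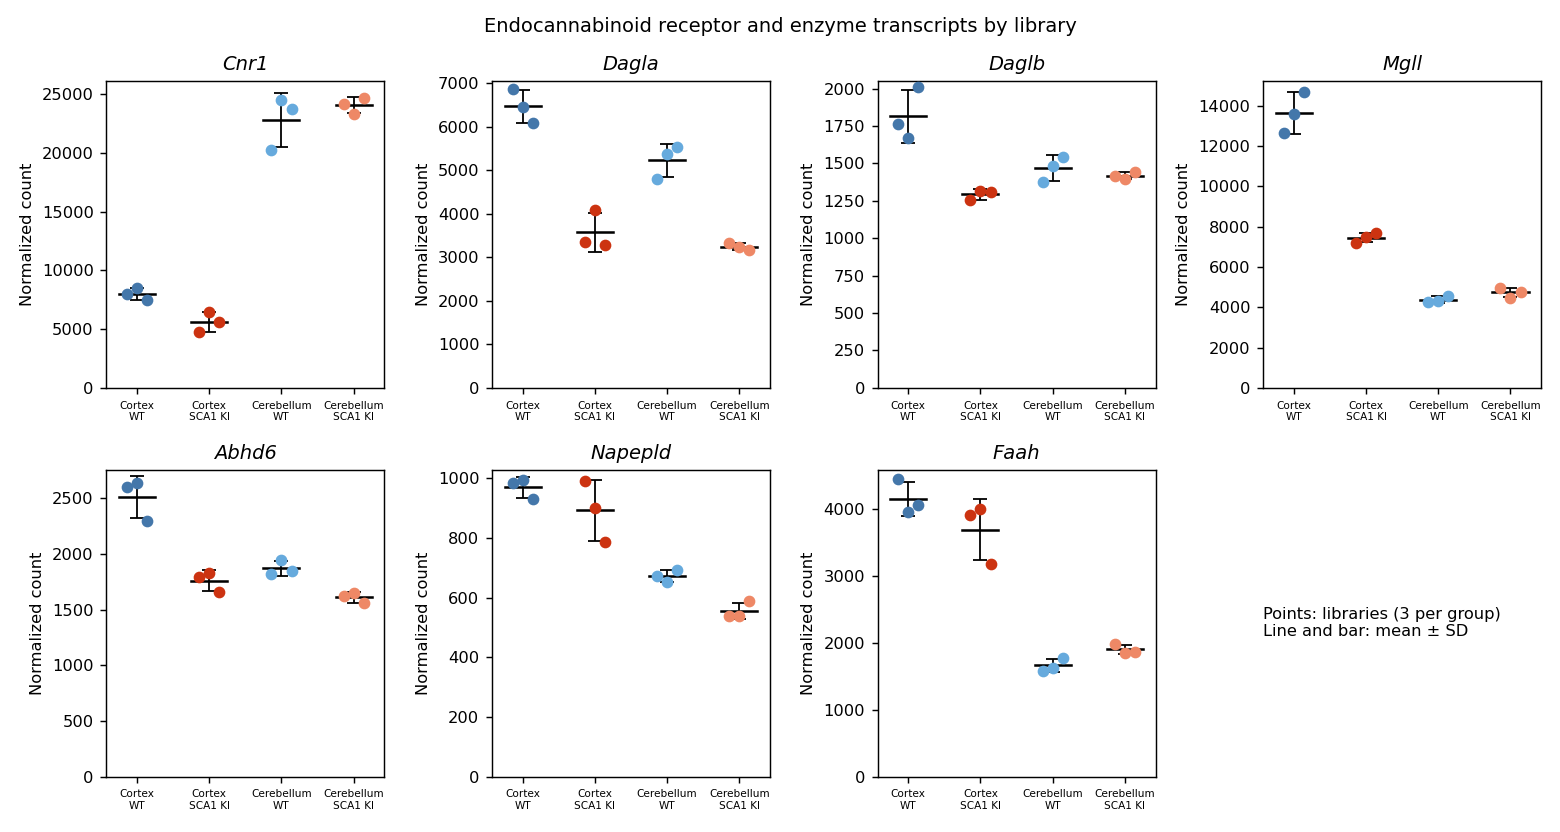
Normalized counts (y axis, from 0) of the 7 genes in the 4 groups of region and genotype (x axis). Points are libraries, the line and bar are the mean and SD of 3. In the cortex all SCA1 KI points of Cnr1, Dagla, Daglb, Mgll and Abhd6 lie below all WT points, and Cnr1 is 2.87 times as high in the WT cerebellum as in the WT cortex.

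Promoter sequences are shown for the transcripts that fell together in the cortex and for which RefSeq (GRCm38.p6) holds a window, from 250 bases before to 50 bases after a transcription start. Windows were found for 6 of the 7 genes, and Dagla had none. Each was searched on both strands for the octamers TGAATGAA and TGAATGGA, which are bound by Capicua, a repressor that forms a complex with ataxin-1. The GC box GGGCGG, the cAMP response element TGACGTCA and TATAAA were searched as well. Capitals mark a match to any of these on either strand. For Cnr1 the window with most CG dinucleotides (40) among its 3 windows and the window nearest to the annotated start are given, at chr4:33924014-33924313 and chr4:33924394-33924693 on the plus strand. The window of Mgll is chr6:88724162-88724461 (plus), that of Abhd6 chr14:8002638-8002937 (plus) and that of Daglb chr5:143464243-143464542 (plus).
Cnr1, upstream start: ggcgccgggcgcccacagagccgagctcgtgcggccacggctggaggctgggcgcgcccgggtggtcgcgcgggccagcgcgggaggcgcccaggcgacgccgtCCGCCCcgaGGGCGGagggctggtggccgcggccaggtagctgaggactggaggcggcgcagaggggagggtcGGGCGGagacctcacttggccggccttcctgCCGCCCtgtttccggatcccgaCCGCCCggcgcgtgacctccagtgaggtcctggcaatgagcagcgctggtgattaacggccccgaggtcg
Cnr1, nearest start: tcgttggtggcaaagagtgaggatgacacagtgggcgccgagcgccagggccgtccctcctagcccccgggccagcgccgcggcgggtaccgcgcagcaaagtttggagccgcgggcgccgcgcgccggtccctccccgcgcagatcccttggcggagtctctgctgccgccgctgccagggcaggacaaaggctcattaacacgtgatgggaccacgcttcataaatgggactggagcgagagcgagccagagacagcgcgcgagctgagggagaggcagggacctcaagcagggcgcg
Mgll: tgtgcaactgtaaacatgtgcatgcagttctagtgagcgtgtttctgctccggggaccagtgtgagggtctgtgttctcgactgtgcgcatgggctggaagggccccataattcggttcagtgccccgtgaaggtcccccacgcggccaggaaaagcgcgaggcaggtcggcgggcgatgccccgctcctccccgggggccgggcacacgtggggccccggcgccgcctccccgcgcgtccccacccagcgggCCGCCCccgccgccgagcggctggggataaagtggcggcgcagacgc
Abhd6: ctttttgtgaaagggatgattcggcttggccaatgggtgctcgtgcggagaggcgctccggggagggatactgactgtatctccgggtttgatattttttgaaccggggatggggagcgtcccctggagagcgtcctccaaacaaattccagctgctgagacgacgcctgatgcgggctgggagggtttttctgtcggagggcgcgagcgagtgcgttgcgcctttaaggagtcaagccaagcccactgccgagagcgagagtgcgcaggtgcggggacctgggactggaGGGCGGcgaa
Daglb: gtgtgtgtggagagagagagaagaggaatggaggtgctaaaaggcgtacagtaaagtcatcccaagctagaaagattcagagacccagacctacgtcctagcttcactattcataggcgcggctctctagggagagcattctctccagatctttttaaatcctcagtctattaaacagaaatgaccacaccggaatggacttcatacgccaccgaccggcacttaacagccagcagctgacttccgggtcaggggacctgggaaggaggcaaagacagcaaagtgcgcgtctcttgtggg
None of the 10 windows of the 6 genes held a Capicua octamer, which occurred in 1.67% of the 14897 windows of all genes in the table. The upstream Cnr1 window, picked for its CG dinucleotides, held 5 GC boxes and the other Cnr1 windows none. The Mgll and Abhd6 windows held 1 each and the Daglb window none, and 59.3% of the windows of all genes in the table held at least 1. The response element and TATAAA matched none of the 10 windows. These matches describe letters and do not show binding.

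Cnr1 (chromosome 4, 33924593 to 33948831, plus strand, GRCm38) encodes the CB1 receptor. In the cortex it had 7983, 8466 and 7452 normalized counts in WT libraries B, C and D, and 4757, 6426 and 5629.6 in SCA1 KI libraries A, E and F. The genotypes did not overlap, and library A was the lowest of all. The mean fell from 7967 ± 507 to 5604 ± 835 (SD, n = 3 each), an LFC of −0.52 (limma, adjusted p = 0.0036, standard error 0.10). Among all tested genes in the cortex, 18.0% had their 3 SCA1 KI values under the 3 WT values and 13.0% had them over. In the cerebellum, where CB1 sits on the parallel fibres of granule cells, Cnr1 had 20233, 24538 and 23713 in WT libraries 2, 4 and 6, and 24179, 23317 and 24679 in SCA1 KI libraries 1, 3 and 5. These ranges overlapped, and the LFC of 0.08 did not pass (95% interval −0.14 to 0.30, adjusted p = 0.771 from limma). Library 2 was the lowest for Cnr1 and also for the summed granule cell markers (132454 normalized counts, against 179889 to 188737 in the other cerebellar libraries). Their part in the result was not tested, and without library 2 the LFC was −0.0042. The LFC of Cnr1 differed between the regions by −0.60 (adjusted p = 0.0216 from limma). That difference missed the threshold without cerebellar SCA1 KI library 1 (−0.59, adjusted p = 0.0554) or library 5 (−0.58, adjusted p = 0.0547), and without cortical WT library C (−0.55, adjusted p = 0.0613).

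For cortical CCK-type interneurons, whose terminals carry CB1, 7 markers were listed. The summed level of these markers ran from 18664 to 22322 normalized counts in cortical WT libraries and from 12275 to 15175 in cortical SCA1 KI libraries. By the test 2 of the 7 were lower, against 10.8% of all tested genes, and none higher. All 7 were detected in each cortical library, and Cck made up most of each sum. Bulk counts do not show which cells Cck came from, so the sum is not a measure of these interneurons alone. Sncg did not fall, with 59.4, 36.5 and 37.6 in WT libraries B, C and D and 68, 52.6 and 114.4 in SCA1 KI libraries A, E and F. Adarb2 overlapped (626 to 674 in WT, 391 to 697 in SCA1 KI). The other markers were lower in all SCA1 KI than in all WT libraries. In bulk tissue fewer cells of a type and less RNA per cell cannot be told apart, and the part of these markers in the Cnr1 result was not tested.

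Dagla (chromosome 19, 10245265 to 10304877, minus strand) encodes the lipase that makes most 2-AG at synapses. In the cortex it had 6867, 6456 and 6100.2 normalized counts in WT libraries B, C and D, and 3347, 4089.7 and 3294 in SCA1 KI libraries A, E and F. In the cerebellum the values were 4797, 5366 and 5529 in WT libraries 2, 4 and 6, and 3339, 3235 and 3169.6 in SCA1 KI libraries 1, 3 and 5. WT and SCA1 KI libraries were apart in both regions, and the 3 cerebellar SCA1 KI libraries lay close together. The mean fell from 6475 ± 384 to 3577 ± 445 in the cortex (SD, n = 3 each), 1.81-fold lower, with an LFC of −0.86 (limma, adjusted p = 3.28e-05, standard error 0.085). In the cerebellum it fell from 5231 ± 384 to 3248 ± 85.3 (SD, n = 3 each), 1.61-fold lower, with an LFC of −0.68 (limma, adjusted p = 4.44e-04, standard error 0.085). The difference between the regions was −0.18 with a 95% interval of −0.44 to 0.083, and did not pass. Over all tested genes in the cerebellum, the SCA1 KI values were all under the WT values in 17.5% and all over them in 14.3%.

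Dagla in the cerebellum is abundant in Purkinje cells, and 8 markers of these cells summed to 328825 to 410677 normalized counts in the WT and 289454 to 326231 in the SCA1 KI cerebellum, with 2 of the 8 lower by the test and none higher. In the same comparison 4.44% of all tested genes were lower. There 7 midbrain markers summed to 1165 to 1542 in WT and 637 to 901 in SCA1 KI libraries, with 5 of the 7 lower. Otx2 made up most of each SCA1 KI sum and overlapped between genotypes (583.6 to 791.5 in WT, 571.2 to 812.3 in SCA1 KI). Every other midbrain marker was lower in all SCA1 KI than in all WT libraries. Pou4f1 had 46.4 to 138.8 in WT and 2.5 to 10.6 in SCA1 KI, and Tal1 107.5 to 248.3 and 45.3 to 50.3. None of the 7 was at 0 in a WT cerebellum library, and Shox2 was at 0 in SCA1 KI library 3. Within the WT cerebellum, library 2 had the highest midbrain sum and the lowest Dagla. Without library 2 the cerebellar LFC of Dagla was −0.75. WT libraries 4 and 6 (1165 and 1243) still held more midbrain counts than any SCA1 KI cerebellum library, so this does not separate the markers from genotype. In the cortex the midbrain markers were on the other side, at 124 to 139 in WT and 755 to 1409 in SCA1 KI libraries. There 3 were higher by the test, against 4.82% of all tested genes, and Shox2, Pax7 and Sox14 were at 0 in every WT cortex library. Library A held the highest midbrain sum of the cortex (1409), of which Tal1 made up 991 and Pou4f1 371.5, while Gata3, Otx2, Pax7 and Sox14 were highest in library F. Library A also had the lowest Cnr1, and the same 5 genes passed in the cortex without it. The remaining libraries E and F held 755 and 907 midbrain counts, still above the WT range, so leaving out A does not separate these markers from genotype. The part of either list in the results was not tested.

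**Figure D2:**
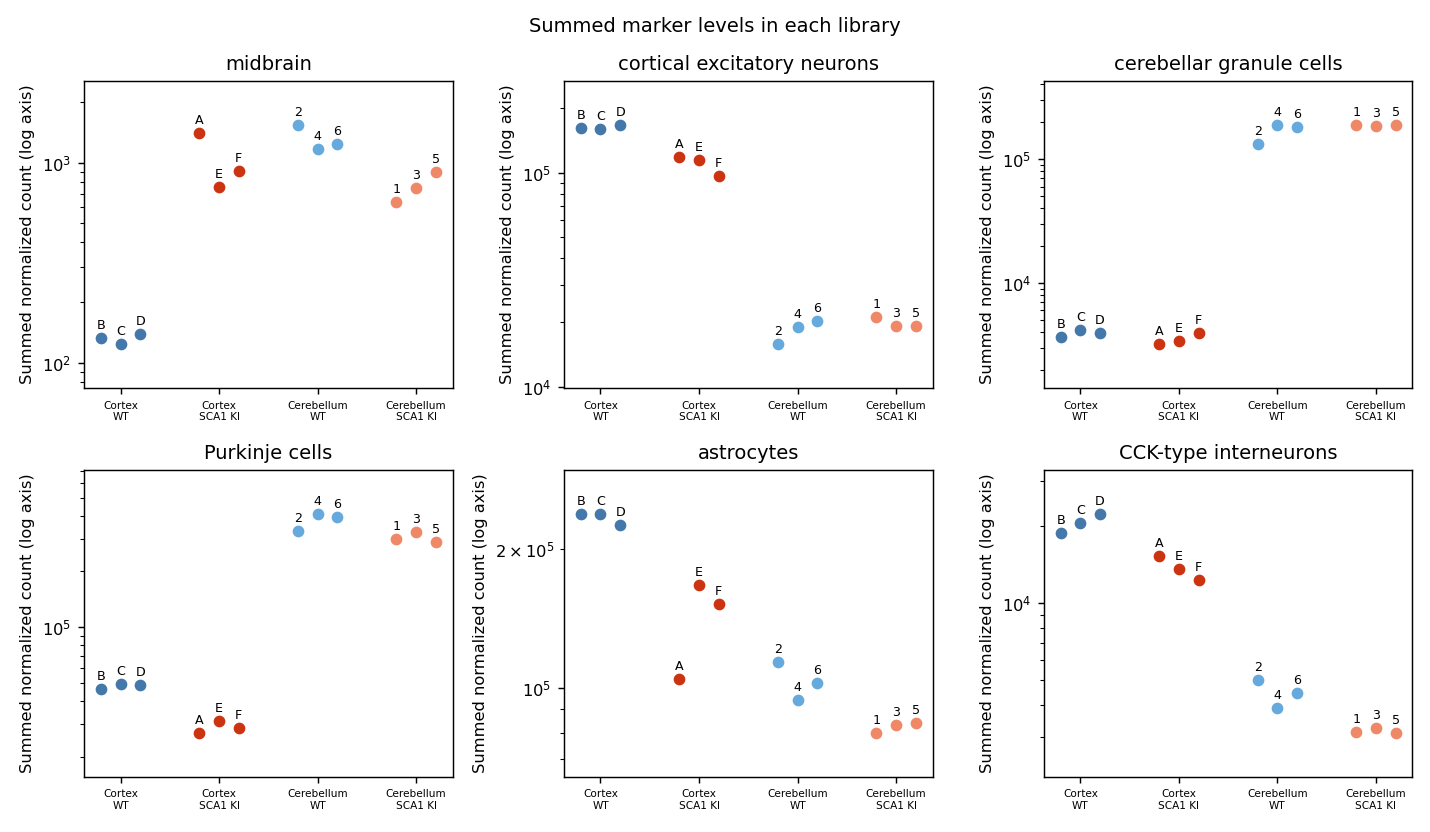
Summed normalized counts of 6 marker lists (log axis) in each library, named by its letter or number, in the 4 groups. The midbrain list is highest in WT libraries within the cerebellum and in SCA1 KI libraries within the cortex, the granule cell list is lowest in library 2 among cerebellar libraries, and the astrocyte list is lowest in library A among cortical libraries.

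Daglb (chromosome 5, 143464584 to 143505942, plus strand), the second diacylglycerol lipase, had 1766, 1671 and 2013 normalized counts in WT cortex libraries B, C and D and 1253, 1319 and 1310.1 in SCA1 KI libraries A, E and F. The genotypes did not overlap, and the SCA1 KI libraries varied less than the WT ones. Daglb fell from 1817 ± 177 to 1294 ± 35.9 (SD, n = 3 each), an LFC of −0.49 (limma, adjusted p = 6.81e-04, standard error 0.074). In the cerebellum the WT libraries ran from 1375 to 1543 and the SCA1 KI libraries from 1395 to 1443, with an LFC of −0.048 (95% interval −0.21 to 0.11). The regional difference of −0.44 passed (adjusted p = 0.0211 from limma), but not after the dependence on length and GC of the transcripts had been removed (−0.34, adjusted p = 0.110), nor without cerebellar SCA1 KI library 1 (adjusted p = 0.0564) or library 5 (adjusted p = 0.0565). Exons of Rac1, on the other strand, cover 24.1% of the exon bases of Daglb. No source used here says that counting used strand or how reads in shared exons were handled. The overlap could therefore raise or lower these values, and with them the level per kilobase and the ratios of Daglb given below.

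Mgll (chromosome 6, 88724412 to 88828360, plus strand), which ends most 2-AG signalling, had 12634, 13599.8 and 14699 normalized counts in WT cortex libraries B, C and D. In SCA1 KI libraries A, E and F it had 7208, 7472 and 7663. No SCA1 KI library came near the WT range, and the SCA1 KI libraries lay close together. Mgll fell from 13645 ± 1033 to 7448 ± 229 (SD, n = 3 each), 1.83-fold lower, with an LFC of −0.87 (limma, adjusted p = 6.31e-06, standard error 0.064). Of all tested genes, 2.71% had a lower LFC in the cortex. In the cerebellum Mgll had 4268, 4302 and 4565 in WT libraries 2, 4 and 6, and 4959, 4479 and 4774 in SCA1 KI libraries 1, 3 and 5, an LFC of 0.11 that did not pass (95% interval −0.026 to 0.25, adjusted p = 0.409 from limma). The regional difference was −0.98 (adjusted p = 1.55e-04 from limma), lower than in all but 1.72% of the tested genes. It stayed between −1.04 and −0.93 with each library left out in turn. A single antisense gene, Gm26588, shares 3.29% of the exon bases of Mgll.

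Mgll is made by neurons and by astrocytes. The 5 astrocyte markers summed to 225220 to 238620 normalized counts in cortical WT libraries and 104549 to 167275 in cortical SCA1 KI libraries, with 3 of the 5 lower by the test. Slc1a2 made up most of each sum (199946 to 214850 in WT, 89746 to 147178 in SCA1 KI). Gfap overlapped between genotypes (4026 to 5066 in WT, 2540 to 4393 in SCA1 KI), and Aqp4, Aldh1l1 and Gja1 did not, with SCA1 KI lower. The lowest sum was in library A, which had 7208 counts of Mgll against 7472 and 7663 in libraries E and F. Markers of cortical excitatory neurons (8 genes) summed to 160038 to 167397 in WT and 96606 to 118177 in SCA1 KI libraries, with 3 of the 8 lower. Of all tested genes 10.8% were lower in the same comparison. No marker of either list was at 0 in a cortical library. The part of these lists in the results was not tested.

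Abhd6 (chromosome 14, 8002902 to 8056763, plus strand), a membrane hydrolase that removes a smaller share of 2-AG on the postsynaptic side, had 2596, 2639.6 and 2296 normalized counts in WT cortex libraries B, C and D. SCA1 KI libraries A, E and F had 1795, 1829 and 1655, again without overlap. Abhd6 fell from 2511 ± 187 to 1759.5 ± 92.0 (SD, n = 3 each), an LFC of −0.51 (limma, adjusted p = 2.62e-04, standard error 0.067). In the cerebellum WT libraries 2, 4 and 6 had 1819.6, 1946 and 1844, and SCA1 KI libraries 1, 3 and 5 had 1624, 1645 and 1556. These did not overlap either, but the LFC of −0.22 did not pass (95% interval −0.36 to −0.071, adjusted p = 0.0916 from limma). It missed only the LFC limit with DESeq2 (adjusted p = 0.0428) and in limma with the cerebellum fitted on its own (adjusted p = 0.0374). The regional difference of −0.29 did not pass in limma (adjusted p = 0.0821), passed with DESeq2 on the recovered reads (adjusted p = 0.0405), and passed in limma without cortical WT library D (−0.36, adjusted p = 0.0298).

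Neither enzyme of anandamide metabolism passed in the cortex. Napepld (chromosome 5, 21662901 to 21701396, minus strand) had 985, 995 and 930.2 normalized counts in WT cortex libraries B, C and D and 990.4, 899.7 and 787 in SCA1 KI libraries A, E and F. The genotypes overlapped, with an LFC of −0.13 (95% interval −0.31 to 0.058, adjusted p = 0.350 from limma). In the cerebellum it had 673, 653 and 693 in WT libraries 2, 4 and 6 and 540.0, 539 and 588 in SCA1 KI libraries 1, 3 and 5. These did not overlap, and the LFC of −0.28 missed the threshold in limma on all libraries (95% interval −0.46 to −0.093, adjusted p = 0.0864). It passed with the cerebellum fitted on its own (adjusted p = 0.0469), with DESeq2 (adjusted p = 0.0490), and without cortical SCA1 KI library A (adjusted p = 0.0411) or F (adjusted p = 0.0457).

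Faah (chromosome 4, 115967145 to 116017926, minus strand) had 4436, 3944 and 4051 normalized counts in WT cortex libraries B, C and D and 3899, 3991 and 3169.8 in SCA1 KI libraries A, E and F. The genotypes overlapped, and library F stood below the other 5. The LFC was −0.17 (95% interval −0.36 to 0.013, adjusted p = 0.198 from limma). In the cerebellum it had 1579.5, 1622 and 1775 in WT libraries 2, 4 and 6 and 1979.9, 1849.7 and 1866 in SCA1 KI libraries 1, 3 and 5. There the SCA1 KI libraries lay above the WT libraries without overlap, at an LFC of 0.20 that did not pass (95% interval 0.0080 to 0.38, adjusted p = 0.263 from limma). For Faah the regional difference was −0.37 and for Napepld 0.15, and neither passed (adjusted p = 0.0880 and 0.526 from limma). Across the 7 genes the regional difference passed in 3, each lower in the cortex, where 4.89% of all tested genes passed in this direction and 3.26% in the other. Without cerebellar SCA1 KI library 1 or 5 it passed in 1, Mgll.

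**Figure D3:**
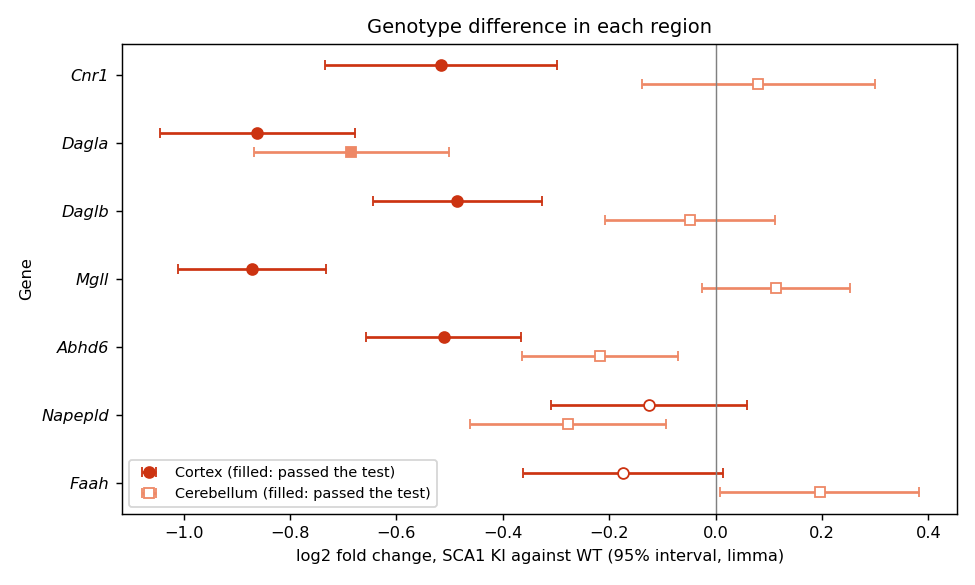
LFC of SCA1 KI against WT (x axis) for each gene (y axis) in cortex (circles) and cerebellum (squares), with 95% intervals from limma. Filled symbols passed the test. In the cortex 5 genes are filled, from −0.87 for Mgll to −0.49 for Daglb, and in the cerebellum only Dagla is filled.

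Levels of different genes were compared as normalized counts per kilobase of exon, with the length of all annotated exons of a gene. In the WT cortex Mgll was highest at 2687 ± 204 per kilobase (SD, n = 3), followed by Cnr1 (1236 ± 78.7), Dagla (1127 ± 66.8) and Abhd6 (1062 ± 79.0), whose neighbours in this order were within their spread. Faah (529 ± 33.0), Napepld (245 ± 8.86) and Daglb (189.9 ± 18.5) were lower. In the WT cerebellum Cnr1 was highest at 3542 ± 355 per kilobase, above 98.0% of the 14608 tested genes with an annotated length. Dagla (910.2 ± 66.9), Mgll (862 ± 32.0) and Abhd6 (791 ± 28.3) followed, Dagla and Mgll within their spread, and Faah (212 ± 13.1), Napepld (170.2 ± 5.0) and Daglb (153 ± 8.94) were lowest again. Receptor and hydrolase thus stood in opposite order in the WT tissues, with Mgll above Cnr1 in cortex and Cnr1 above Mgll in cerebellum.

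Between the WT regions, all 7 genes differed by the test, Cnr1 lower in the cortex and the other 6 higher. Of all tested genes 30.7% were lower and 31.0% higher in the WT cortex, and the tissues were sequenced as separate datasets, so that region and dataset cannot be told apart. Cnr1 had an LFC of −1.52 for cortex against cerebellum, Mgll of 1.64, Faah of 1.32, Napepld of 0.53, Abhd6 of 0.42, Dagla of 0.31 and Daglb of 0.30. For Dagla this was 0.11 and did not pass once the dependence on length and GC was removed (adjusted p = 0.181 from limma), and it was 0.25, just under the limit, without cerebellar WT library 2. For Daglb it was 0.23, under the limit, without cortical WT library D. Between the SCA1 KI regions 4 of the 7 passed, against 30.5% of all tested genes lower and 32.0% higher in the SCA1 KI cortex. Cnr1 was lower in the cortex (LFC −2.11), and Faah (0.95), Napepld (0.68) and Mgll (0.65) were higher. Dagla, Abhd6 and Daglb did not pass, with LFC of 0.13, 0.13 and −0.13.

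Ordered by level, Cnr1 ran from the cerebellum, whose genotypes overlapped, to the WT cortex and then the SCA1 KI cortex. Mgll ran from the WT cortex to the SCA1 KI cortex and then to the cerebellum, whose genotypes did not pass. Dagla was highest in the WT cortex, then in the WT cerebellum, and lowest in the SCA1 KI tissues, whose libraries overlapped (3294 to 4089.7 in cortex, 3169.6 to 3339 in cerebellum). For Daglb and Abhd6 the WT cortex stood above the other 3 groups. Faah and Napepld were ordered by region, with cortical libraries of either genotype above all cerebellar libraries.

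Ratios between the enzymes were taken within each library, per kilobase, since the size factor cancels there. They were chosen after the values had been seen, and with 3 against 3 libraries an exact permutation test cannot go below p = 0.1. Dagla to Mgll, the main enzymes of 2-AG synthesis and breakdown, stood at 0.422 ± 0.0568 in cortical WT and 0.424 ± 0.0534 in cortical SCA1 KI libraries (SD, n = 3 each, exact permutation test, 2-sided, p = 0.9). In the cerebellum the same ratio was 1.06 ± 0.0561 in WT and 0.606 ± 0.0277 in SCA1 KI libraries, without overlap (exact permutation p = 0.1). Dagla to Daglb was 5.93 ± 0.108 and 3.81 ± 0.140 in the WT and SCA1 KI cerebellum, again without overlap, while in the cortex it was 5.98 ± 0.813 and 4.60 ± 0.506 with overlap (exact permutation p = 0.1 and 0.2). Mgll to Abhd6 was 2.55 ± 0.380 in the WT and 1.98 ± 0.156 in the SCA1 KI cortex, but 1.09 ± 0.0617 and 1.37 ± 0.0910 in the cerebellum (exact permutation p = 0.1 for each). Napepld to Faah was 0.465 ± 0.0313 and 0.480 ± 0.0301 in the cortex and 0.805 ± 0.0358 and 0.580 ± 0.0419 in the cerebellum (exact permutation p = 0.7 and 0.1). Over these 8 tests the smallest Benjamini-Hochberg adjusted p was 0.16.

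**Figure D4:**
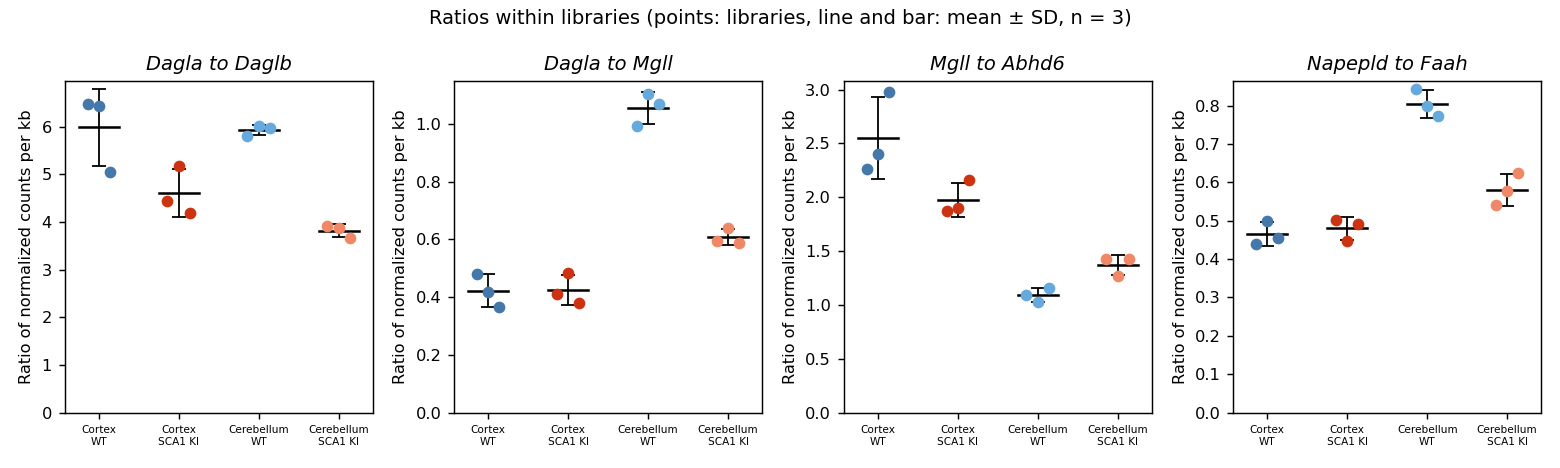
Ratios of normalized counts per kilobase within each library (y axis, from 0) for 4 pairs of enzymes in the 4 groups, with mean and SD of 3 libraries. Dagla to Mgll lies at the same height in both cortical groups and is lower in all SCA1 KI than in all WT libraries of the cerebellum.

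Other genes of the pathway were taken from a list of 50, of which 43 were tested. In the cortex 12 of the 43 were lower in SCA1 KI mice and none higher, where 10.8% and 4.82% of all tested genes passed. In the cerebellum 4 were lower and none higher, where 4.44% and 0.917% of all tested genes passed. The median LFC of the 43 was −0.13 in the cortex and −0.042 in the cerebellum. The path that drives 2-AG synthesis, from Gq-coupled receptors to phospholipase C beta, held 4 lower genes of 10 in each region. Chrm1 and Chrm3, muscarinic acetylcholine receptors, were lower in both (LFC −0.62 and −0.96 in cortex, −1.37 and −1.60 in cerebellum). Chrm1 in the cortex was at the limit of the test (adjusted p = 0.0499 from limma). Plcb1 (−0.70) and Plcb4 (−0.64) were lower in the cortex. Grm5 (−1.68) and Plcb3 (−0.90) were lower in the cerebellum, where Grm5 had a mean of 1959 normalized counts in WT and 586 in SCA1 KI libraries. The 2 muscarinic receptors had low cerebellar means (58.7 and 21.6 normalized counts for Chrm1, 224 and 68.3 for Chrm3, WT first). In the same SCA1 KI libraries the midbrain markers given above, except Otx2, were lower.

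Among 12 effectors of CB1, 5 were lower in the cortex, against 10.8% of all tested genes, and none passed in the cerebellum. Kcnj3 (−0.28), Kcnj6 (−0.66) and Kcnj9 (−0.62), subunits of G protein-gated potassium channels, all fell. Cacna1a (−0.47), the pore of the P/Q-type calcium channel, and Adcy1 (−0.89), an adenylyl cyclase, were the other lower effectors. The difference between the regions passed for Adcy1, Cacna1a, Kcnj3, Kcnj6, Plcb1 and Plcb4, with the lower LFC in the cortex. It also passed for Grm5 and Plcb3, with the lower LFC in the cerebellum (adjusted p from 2.34e-04 to 0.0475 from limma). Of all tested genes 4.89% passed in the first direction and 3.26% in the second. The difference did not pass for Chrm1, Chrm3, Kcnj9, Ppara, Pparg or Ptgs2. Ppara (−0.43) and Pparg (−0.81), nuclear receptors that bind fatty acid amides, and Ptgs2 (−0.83), a cyclooxygenase that can oxygenate 2-AG, were lower in the cortex. None of the 2 CB1-binding proteins Cnrip1 and Sgip1, the 2-AG enzymes Abhd12 and Ddhd2, the 9 tested enzymes of N-acylethanolamine metabolism or the 4 lipid carriers passed in either region. Among these, Abhd12 in the cortex missed only the LFC limit (LFC −0.22, adjusted p = 0.036 from limma). Cnr2, Gpr55, Gpr18, Gpr119, Trpv1, Plaat5 and Alox15 had no row and were not analysed here.

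**Figure D5:**
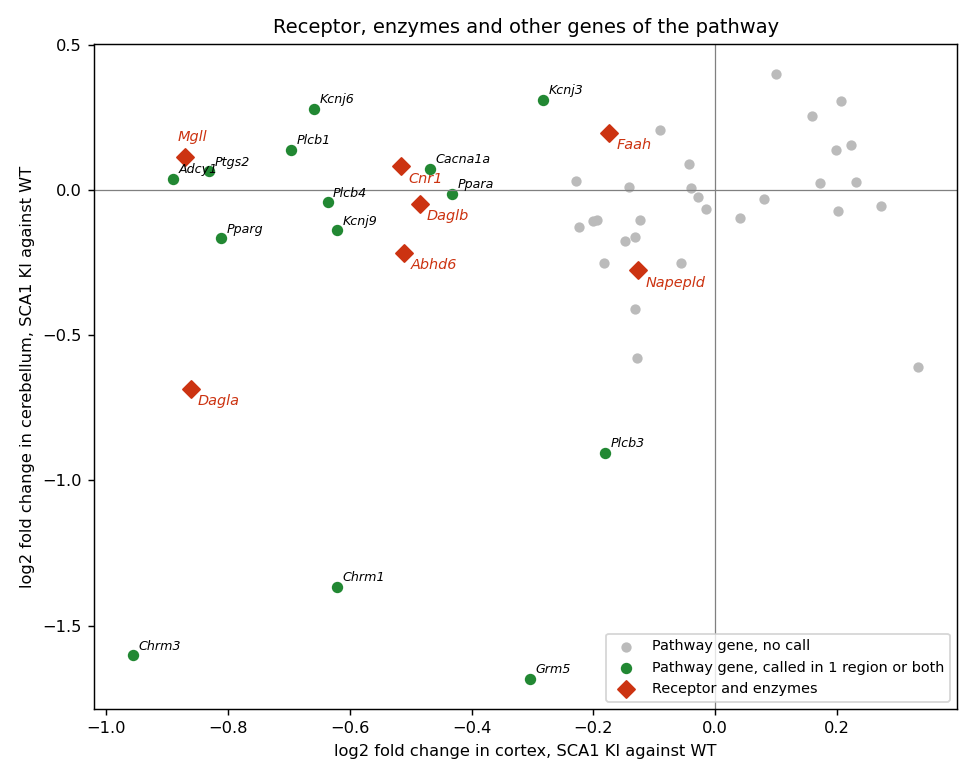
LFC of SCA1 KI against WT in the cortex (x axis) and the cerebellum (y axis) for the receptor and enzymes (diamonds) and 43 other genes of the pathway (circles, green and named where called in 1 region or both). Dagla lies low on both axes, as do Chrm1 and Chrm3, while Mgll lies low on the cortical axis with Adcy1, Ptgs2 and Pparg.

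For each gene the closest patterns among all tested genes were sought with Pearson's correlation of log2 normalized counts over the 12 libraries, after subtraction of the mean of each region. The libraries share genotype and any dissection difference, so the values are a description. Dagla was followed most closely by Rhobtb2 (r = 0.981), which had LFC of −0.86 and −0.60 in cortex and cerebellum, and then by Rabl6 (r = 0.976) and Slc12a5 (r = 0.975). Cnr1 was closest to Gramd1b (r = 0.987), Hipk1 (r = 0.984) and Gm608 (r = 0.983). Mgll was closest to Bap1 (r = 0.986), Mapk4 (r = 0.980) and Nudt3 (r = 0.978), Daglb to Sec14l1 (r = 0.985), Cdk16 (r = 0.976) and Pacsin3 (r = 0.973), and Abhd6 to Kif17 (r = 0.984), Sema7a (r = 0.983) and Gria3 (r = 0.977). Values were lower for Napepld (Ajap1, r = 0.912, Tcf25, r = 0.908, Spats2l, r = 0.907), and for Faah the 3 closest genes included Cyth2 (r = 0.896) and Glyr1 (r = 0.894).

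Across the series, reads on the listed genes numbered 29520855 to 51311309 per library, and every member had at least 539 normalized counts in each library. Atxn1, the knock-in gene, had 7370.4 ± 815 and 6040.0 ± 1337 normalized counts in the WT and SCA1 KI cortex and 3679 ± 54.9 and 3889 ± 221 in the cerebellum (SD, n = 3 each), and passed in neither region. Counts per gene do not read the repeat, so they do not check the genotype. The excitatory markers Tbr1 and Emx1 were present in every cortical library and the granule cell markers Gabra6, Fat2 and Cbln3 in every cerebellar library.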

How the data were processed

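The authors used STAR for alignment of paired-end reads to mm10, featureCounts for gene counts and DESeq2 for normalization (versions not given in the sources used here). The deposited signal is the number of reads of a gene divided by a size factor of its library. Reads were recovered from it, with 100% of values whole within 0.1 read. From the columns the group of a library is known, not its number in the labels. log2(normalized count + 1) of 15369 genes with a mean of at least 10 was fitted with limma 3.58.1 in R 4.3.3 (trend on the mean, 12 libraries, 4 group means), and p were adjusted by Benjamini-Hochberg over all tested genes. LFC on this scale understate changes of low genes. The series describes the libraries of a group as biological replicates.

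Alternatives were a pseudocount of 0.5 or 5, tests without the filter or with a mean of at least 100, regions fitted separately, median centring, removal of the dependence on length and GC, edgeR 4.0.16, DESeq2 1.42.0, LFC limits of 0 and 1, and each library left out. The fits were tested on simulated data. Coordinates, exon lengths and overlaps are from GENCODE vM21 (GRCm38), which matched 14977 of 15759 entries. The named genes are the 7 genes, pathway genes called in either region, the 3 best correlated genes of each (1 of those of Faah is not reported here), and Atxn1. The members, lists and tests were chosen with earlier results of these data known.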

Additional observations from a re-analysis of the deposited data

Results flagged for a closer look

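The genotype difference (SCA1 KI minus WT, log2) was tested between the regions for each of the 7 genes, cortex minus cerebellum, and passed in 3. It was −0.98 for Mgll, −0.60 for Cnr1 and −0.44 for Daglb (limma, adjusted p = 1.55e-04, 0.0216 and 0.0211). For each of the 3, all SCA1 KI cortex libraries lay below all WT cortex libraries, and the cerebellar libraries of the genotypes overlapped. Mgll passed with any library left out. Cnr1 missed the threshold without cerebellar SCA1 KI library 1, library 5 or cortical WT library C (adjusted p = 0.0554, 0.0547 and 0.0613), and Daglb without cerebellar SCA1 KI library 1 or 5 (0.0564 and 0.0565) or with the dependence on length and GC removed (0.110). With 3 libraries per group no single library was tested as an outlier.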

How the results depend on the processing

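The cortical count of 5 lower genes was the same in all alternatives except an LFC limit of 1, at which it was 0. At that limit the cerebellar count was 0, the counts between WT regions and between SCA1 KI regions were 3 and 1, and the pathway genes numbered 0 in the cortex and 3 in the cerebellum. With 1 library left out the cortical count stayed at 5. Leaving out a library of 1 region left the genotype LFC of the other region as it was, and only its adjusted p could change. In the cerebellum 2 genes, Dagla and Napepld, passed with DESeq2 and with the region fitted on its own, and 1 to 2 with 1 library left out. Regional differences passed in 1 to 4 genes with 1 library left out, and in 1 (Mgll) without cerebellar SCA1 KI library 1 or 5. Of the values of single genes under the alternatives, 726 kept direction and call, 22 lost a call, 6 gained one and 2 changed sign. Those were Cnr1 in the cerebellum (−0.0042 to 0.135 with 1 library left out) and Dagla between the SCA1 KI regions (−0.0090 with the dependence on length and GC removed). The causes were not tested. Part of the kept values had no way to change direction, since the library left out was of the other region. No paired analysis was possible because the columns carry none of the replicate numbers of the labels. Each of the 7 genes had at least 539 normalized counts in each library, and the 3 libraries per group limit the precision.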

Other observations

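Other marker lists were measured beside the 7 genes. Choroid plexus markers (5 genes) summed to 482 to 74004 normalized counts within the SCA1 KI cerebellum and 18643 to 70756 within the WT cerebellum, so single libraries differed widely, and none of the 5 passed the test. Oligodendrocyte markers (6 genes) summed to 168430.0 to 256856 in the WT and 142672 to 143220 in the SCA1 KI cerebellum, with 1 of 6 lower. Thalamus markers (4 genes) summed to 4919 to 5881 in the WT and 3119 to 3220 in the SCA1 KI cerebellum, with 3 of 4 lower. Of all tested genes 4.44% were lower in the SCA1 KI cerebellum. Microglia markers (6 genes) summed to 10107 to 10938 in the WT and 9608 to 10336 in the SCA1 KI cortex, with none called.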
